A study of Mus musculus with 3 samples.

Results

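The mitochondrial genome of the mouse carries 37 annotated genes, 13 for mRNAs, 2 for rRNAs and 22 for tRNAs, and the counts of these genes in polysomal RNA of bone marrow cells are described here. The genes were chosen by their chromosome, as all genes of the mitochondrial chromosome (symbols starting with mt-) in GENCODE release M21 on GRCm38, and all 37 were among the 48795 gene identifiers counted. Marrow cells of wild-type (WT) mice gave 2 libraries, named WT 1 and WT 2, and marrow cells of mice of the genotype Mat KO gave 1 library. The labels give neither the allele behind Mat KO nor the strain, age or number of mice, and the series title names Dlk1-Gtl2, an imprinted locus, together with modification of rRNA. In all groups, cells were held in 100 µg/ml cycloheximide for 10 minutes before lysis, and polysomes were separated on sucrose gradients of 10% to 50%. The values are raw counts of reads per gene. With 1 Mat KO library there is no spread for that group, and whether the WT libraries came from separate mice is not stated, so their spread may be technical.

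Mitochondrial DNA is transcribed from both strands as long precursors, which are cut at the tRNAs that lie between most rRNA and mRNA genes. The mRNAs encode membrane subunits of the respiratory chain: the Nd genes for complex I (NADH dehydrogenase), mt-Cytb for complex III, the Co genes for complex IV (cytochrome c oxidase), and mt-Atp6 and mt-Atp8 for complex V (ATP synthase). They are translated inside the organelle by mitochondrial ribosomes, whose RNAs are mt-Rnr1 in the small subunit and mt-Rnr2 in the large. Cycloheximide acts on cytosolic ribosomes and not on mitochondrial ones. Mitochondrial ribosomes and mRNAs in a detergent lysate can enter a sucrose gradient beside the cytosolic polysomes.

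The libraries stood far apart before any gene was compared. They held 64547 gene-assigned counts over 4349 genes in WT 1, 239429 over 425 genes in WT 2, and 125871 over 642 genes in Mat KO. Between 9.99% and 15.1% of the recorded reads were assigned to a gene, whereas reads lying on several genes made up 33.5% in WT 1, 74.3% in WT 2 and 66.1% in Mat KO. The fixed marrow markers were found in WT 1 alone, apart from Igkc and Ptprc. All 4 globin genes (401 counts), all 7 neutrophil genes (428) and 3 of 4 B cell genes (88) were found in WT 1. The same lists summed to 0, 0 and 0 in WT 2 and to 0, 0 and 1 in Mat KO. The leukocyte gene Ptprc had 0, 0 and 8 counts, in the order WT 1, WT 2, Mat KO, which is kept throughout. Genes of other tissues are given per 10000 counts of nuclear protein-coding genes without Lars2, of which the libraries held 18576, 1220 and 8021. The 5 skeletal muscle genes had 102 (189 counts), 0 and 0. The 3 liver genes had 140.5 (261 counts, interval 125 to 158.5), 213 (26 counts, 146 to 310.4) and 0, so WT 2 was the highest, with overlapping WT intervals. The 4 pancreas genes had 0.538 (1 count), 57.4 (7) and 338 (271), highest in Mat KO. The part of muscle, liver and pancreas in the mitochondrial counts was not tested. Fewer cells of a type and less RNA per cell cannot be told apart in such bulk libraries.

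The sequences bear on how well each gene could be counted, because parts of the mitochondrial genome are also present in nuclear chromosomes. The beginning of mt-Co2, a complex IV subunit gene, is set below beside its annotated copies on chromosomes 1 and 2, and the beginning of mt-Cytb beside its copy on chromosome 4. All are from GENCODE M21 transcripts, 90 bases each, 5′ to 3′. Capitals mark bases that differ from the mitochondrial gene.
mt-Co2 (chrM:7013-7102, plus strand): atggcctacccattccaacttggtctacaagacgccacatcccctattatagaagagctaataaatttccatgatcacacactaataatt
Gm28661 (chr1:24615476-24615565, minus strand): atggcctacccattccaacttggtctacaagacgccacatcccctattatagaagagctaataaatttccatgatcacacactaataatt
Gm13341 (chr2:22587873-22587962, minus strand): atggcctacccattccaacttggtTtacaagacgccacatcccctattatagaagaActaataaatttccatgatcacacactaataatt
mt-Cytb (chrM:14145-14234, plus strand): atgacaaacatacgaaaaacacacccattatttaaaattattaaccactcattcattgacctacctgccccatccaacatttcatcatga
Gm11410 (chr4:80003989-80004078, plus strand): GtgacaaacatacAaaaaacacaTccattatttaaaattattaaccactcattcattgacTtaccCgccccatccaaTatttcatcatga
Gm28661 did not differ from mt-Co2 in this window. Gm13341 differed at 2 positions, counted from 1 at the 5′ end (C25T and G57A, with the base of mt-Co2 given before that of the copy), and Gm11410 differed from mt-Cytb at 6 (A1G, G14A, C24T, C61T, T66C and C78T). A read from the mt-Co2 window fits equally well on chromosomes M and 1, and a read from the mt-Cytb window that spans such a position does not.

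The copy of mt-Co2 on chromosome 1 belongs to a longer one. Along the minus strand of chr1:24611535-24616188, 7 annotated pseudogenes (Gm29216, Gm28661, Gm10925, Gm28437, Gm28438, Gm10222 and Gm28439) follow the order of mt-Co1, mt-Co2, mt-Atp6, mt-Co3, mt-Nd3, mt-Nd4l and mt-Nd4. In BLAST alignments 5 of the 7 were identical to the mitochondrial gene over the aligned bases: 681 of mt-Co2, 678 of mt-Atp6, 783 of mt-Co3, 294 of mt-Nd4l and 876 of mt-Nd4. Gm29216 differed from the last 483 bases of mt-Co1 at 1 position and Gm28438 from 345 bases of mt-Nd3 at 1. The spacing between neighbouring copies was the same as on the mitochondrial genome in 5 of 6 pairs, and 74 against 73 bases in the other. The mitochondrial stretch so covered is chrM:6390-11042, 4653 bases. It holds 6 mRNA genes whole (mt-Co2, mt-Atp8, mt-Atp6, mt-Co3, mt-Nd3 and mt-Nd4l) and parts of mt-Co1 and mt-Nd4, while mt-Nd1, mt-Nd2, mt-Nd5, mt-Nd6 and mt-Cytb lie outside it. No transcript is annotated on chromosome 1 in the place of mt-Atp8, and the genome sequence was not used here. Another 14 annotated pseudogenes on other chromosomes matched mitochondrial mRNA genes at 85.3% to 97.6% identity, and the 10 of them present in the tables held 2, 0 and 0 counts.

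The 22 tRNA genes had 0 counts in every library. They decode the mitochondrial codons and are 59 to 75 bases long, 14 on the plus and 8 on the minus strand. The shortest and the longest are shown whole, since their length bears on the count.
mt-Ts2, a serine tRNA (chrM:11613-11671, plus strand): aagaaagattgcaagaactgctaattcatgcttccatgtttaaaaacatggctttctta
mt-Tl1, a leucine tRNA (chrM:2676-2750, plus strand): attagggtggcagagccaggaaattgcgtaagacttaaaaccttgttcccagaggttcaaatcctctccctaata
Of the 36 pairs of neighbouring genes on the annotated chromosome, 9 overlap and 12 abut without a base between them, and 14 of the 22 tRNA genes touch or overlap a neighbour. mt-Tl1 abuts mt-Rnr2 on one side and mt-Nd1 on the other. A read that reaches into the neighbour lies on both genes, and such reads were recorded apart. The sources used here give no read length or size selection, so a count of 0 says nothing about the tRNAs in the gradient. A count of 0 allowed up to 46.5, 12.5 and 23.8 CPM for a gene (counts per 1e6 gene-assigned counts), taking 3 counts as the limit.

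The rRNAs held most mitochondrial counts in every library, and their amount differed more between the WT libraries than between either of them and Mat KO. mt-Rnr1 (ENSMUSG00000064337, chrM:70-1024), the RNA of the small mitochondrial ribosomal subunit, had 2215, 21866 and 6384 counts. mt-Rnr2 (ENSMUSG00000064339, chrM:1094-2675), the RNA of the large subunit, had 1801, 54511 and 7240. WT 2 was highest for both genes, WT 1 lowest, and Mat KO between them. Relative to all gene-assigned counts, the whole mitochondrial genome made up 8.02% in WT 1 (95% Wilson interval 7.82 to 8.24), 32.0% in WT 2 (31.8 to 32.1) and 11.5% in Mat KO (11.4 to 11.7). The share and the place of Mat KO depended on the denominator. Without Lars2 and CT010467.1, which together held most gene-assigned counts in each library, it was 20.8%, 97.2% and 51.8%, with Mat KO again between the WT libraries. Of all recorded reads it was 1.21%, 3.76% and 1.15%, with Mat KO below both. These and all later intervals cover counting error only, and they are too narrow where reads are PCR copies of one molecule.

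The balance of the rRNAs also differed between libraries. mt-Rnr2 made up 44.9% of the rRNA counts in WT 1 (43.3 to 46.4), 71.4% in WT 2 (71.05 to 71.7) and 53.1% in Mat KO (52.3 to 54.0). Per kilobase of gene, mt-Rnr1 had 2319, 22896 and 6685 counts and mt-Rnr2 1138, 34457 and 4576. Per kilobase, mt-Rnr2 thus lay at 0.491 of mt-Rnr1 in WT 1 and 0.685 in Mat KO, and at 1.51 in WT 2, where the order of the pair was turned. The Mat KO share of mt-Rnr2 lay 4.97 percentage points below the WT mean, well within the WT spread (SD 18.8, n = 2).

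The ratio of rRNA to mRNA counts differed widely between the libraries. The 13 mRNAs together had 1163, 139 and 896 counts against 4016, 76377 and 13624 rRNA counts. This was 3.45 rRNA counts for each mRNA count in WT 1 (Wilson interval 3.24 to 3.69), 549.5 in WT 2 (465 to 649) and 15.2 in Mat KO (14.2 to 16.3). WT 2 lay 159-fold above WT 1, and Mat KO lay 4.40-fold above WT 1 and was exceeded 36.1-fold by WT 2. The Mat KO ratio therefore fell inside the range of the WT libraries. The sources used here do not say whether rRNA was depleted, and the part of library preparation in these ratios was not tested. Mean counts per kilobase of the rRNAs, set against those of the mRNAs, kept this order at 23.05, 3113 and 95.5.

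**Figure D1:**
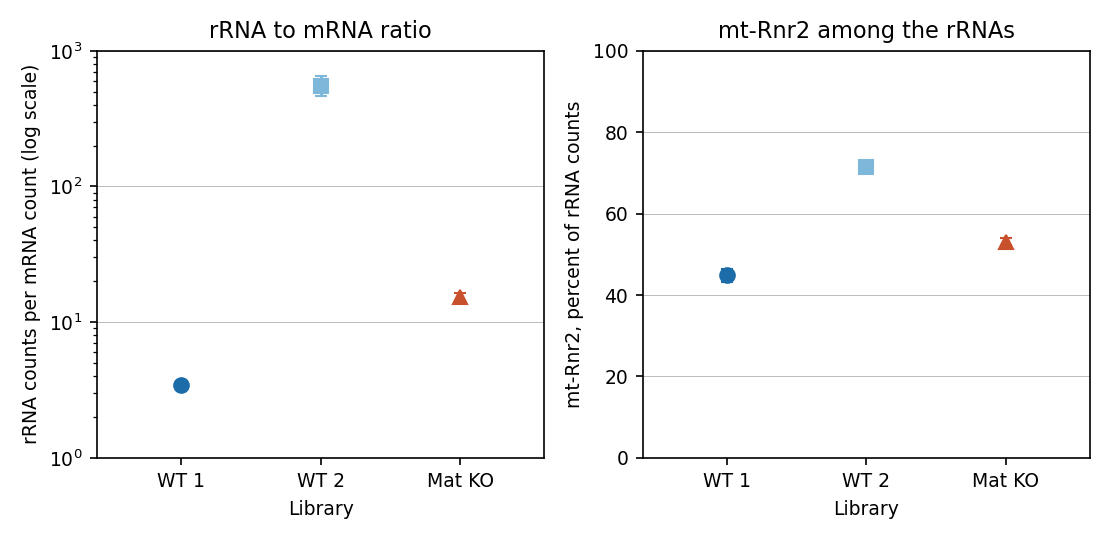
Left, counts of mt-Rnr1 and mt-Rnr2 together divided by counts of the 13 mRNAs, on a log scale, for each library. Right, mt-Rnr2 as percent of the rRNA counts. Points are single libraries and bars 95% Wilson intervals (counting error only, mostly smaller than the points). On both measures Mat KO lies between WT 1 and WT 2, at 15.2 and 53.1%.

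How large the mRNA pool appeared depended on what it was set against. Of all gene-assigned counts the 13 mRNAs made up 1.80% in WT 1 (1.70 to 1.91), 0.058% in WT 2 (0.0492 to 0.0685) and 0.712% in Mat KO (0.667 to 0.760). Of the protein-coding counts without Lars2, a gene that took a large part of each library, they made up 5.89% (5.57 to 6.23), 10.2% (8.73 to 11.95) and 10.05% (9.44 to 10.7). On the former scale Mat KO lay between the WT libraries. On the latter it also did, with an interval inside that of WT 2 and above that of WT 1.

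Which mRNAs filled the pool differed from library to library, and the most counted mRNA was a different gene in each. All 13 mRNAs had a count in WT 1, 11 in Mat KO and 5 in WT 2 (mt-Nd1, mt-Nd2, mt-Co3, mt-Nd5 and mt-Cytb). mt-Co1 led in WT 1 with 38.3% of the mRNA counts (35.6 to 41.2), mt-Nd2 in WT 2 with 38.1% (30.5 to 46.4), and mt-Nd5 in Mat KO with 36.05% (33.0 to 39.25). The 139 mRNA counts of WT 2 lay on few genes, and a count of 0 there allowed up to 2.16% of its mRNA pool. In WT 1 and Mat KO that limit was 0.258% and 0.335%.

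**Figure D2:**
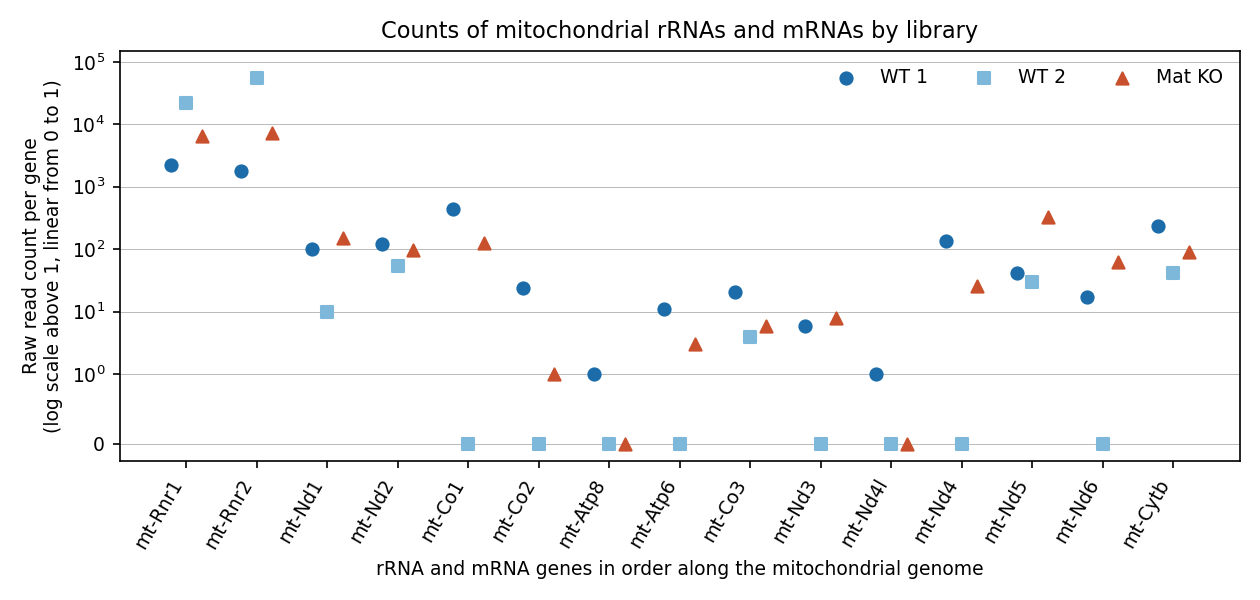
Raw read counts of the 2 rRNA and 13 mRNA genes in each library, in genome order, on a scale that is logarithmic above 1 and linear from 0 to 1. WT 2 (squares) is highest for both rRNAs, with 21866 and 54511 counts, and at 0 for 8 of the 13 mRNAs. Mat KO (triangles) is highest for mt-Nd1, mt-Nd3, mt-Nd5 and mt-Nd6 in raw counts.

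Complex I subunits made up 36.4% of the mRNA counts in WT 1 (33.7 to 39.2), 66.9% in WT 2 (58.7 to 74.2) and 74.4% in Mat KO (71.5 to 77.2). The Mat KO share exceeded both WT shares, with an interval that overlapped that of WT 2. It lay 22.8 percentage points above the WT mean, about as much as the WT spread (SD 21.6, n = 2).

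Among the complex I genes, mt-Nd5 and mt-Nd6 were the ones highest in Mat KO in raw counts, in CPM and as a share of the mRNAs. mt-Nd5 (ENSMUSG00000064367, chrM:11742-13565), a proton-pumping core subunit, had 42, 30 and 323 counts, or 651, 125 and 2566 CPM. Within the mRNA pool this was 3.61% (2.68 to 4.85), 21.6% (15.6 to 29.1) and 36.05% (33.0 to 39.25). mt-Nd6 (ENSMUSG00000064368, chrM:13552-14070), the only mRNA gene on the minus strand, had 17, 0 and 63 counts, or 1.46% (0.915 to 2.33), 0% and 7.03% (5.53 to 8.90) of the pool. The Mat KO share of mt-Nd6 lay 6.30 percentage points above the WT mean, more than the WT spread (SD 1.03, n = 2), and its interval lay above those of both WT libraries. With 1 Mat KO library this difference has no replicate check.

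mt-Nd5 and mt-Nd6 overlap tail to tail by 14 bases on opposite strands, and the sources used here do not say whether reads were counted by strand. Plus-strand RNA that runs past the end of mt-Nd5 would then be counted as mt-Nd6 if strand was ignored, so the counts of the pair cannot be told apart by strand. mt-Nd6 made up 28.8% of the summed counts of the pair in WT 1 (18.8 to 41.4), 0 of 30 in WT 2, which allows up to 10% at 3 counts, and 16.3% in Mat KO (12.97 to 20.3). By annotated strand, plus-strand genes held 98.5%, 100% and 93.0% of the mRNA counts.

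The other Nd genes showed no shared direction. mt-Nd1, the first mRNA gene after the rRNAs, had 101, 10 and 150 counts, or 8.68%, 7.19% and 16.7% of the pool. mt-Nd2 had 120, 53 and 97 counts, or 10.3%, 38.1% and 10.8%, so WT 1 and Mat KO were alike and WT 2 stood apart. mt-Nd4 had 136, 0 and 26 counts, or 11.7% (9.97 to 13.7), 0% and 2.90% (1.99 to 4.22). mt-Nd3 had 6, 0 and 8 counts, and mt-Nd4l, a small gene that overlaps mt-Nd4 by 7 bases, had 1, 0 and 0. For mt-Nd4 Mat KO lay below WT 1, and the 0 of WT 2 allows up to 2.16%.

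Complex III is represented by mt-Cytb (ENSMUSG00000064370, chrM:14145-15288), the cytochrome b of the chain, with 237, 42 and 91 counts. It made up 20.4% (18.2 to 22.8), 30.2% (23.2 to 38.3) and 10.2% (8.35 to 12.3) of the mRNA pool. The Mat KO share was the lowest of the 3 libraries, and its interval did not reach those of the WT libraries. In CPM the values were 3672, 175 and 723, with Mat KO between the WT libraries, so the order depended on the scale.

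Complex IV subunits made up 42.2% of the mRNA counts in WT 1 (39.4 to 45.1), 2.88% in WT 2 (1.13 to 7.17) and 15.1% in Mat KO (12.9 to 17.6), nearly all of it mt-Co1 in WT 1 and Mat KO. mt-Co1 (ENSMUSG00000064351, chrM:5328-6872), the catalytic subunit, had 446, 0 and 128 counts, or 38.3%, 0% and 14.3% (12.15 to 16.7) of the pool. WT 1 and WT 2 were the extremes, although mt-Nd2, the mRNA gene before it, had 53 counts in WT 2. mt-Co2 had 24, 0 and 1 counts and mt-Co3 21, 4 and 6. Complex V was hardly counted, with 11, 0 and 3 counts for mt-Atp6 and 1, 0 and 0 for mt-Atp8.

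**Figure D3:**
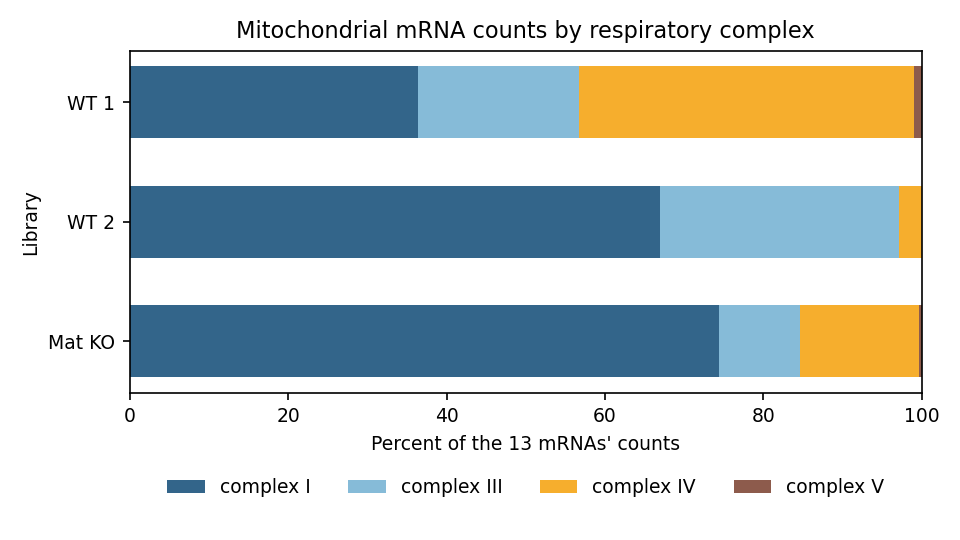
Share of the 13 mRNAs' counts by respiratory complex (percent), 1 bar a library. Complex I takes 36.4% in WT 1, 66.9% in WT 2 and 74.4% in Mat KO, and complex IV 42.2%, 2.88% and 15.1%. Complex II has no mitochondrial gene.

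**Figure D4:**
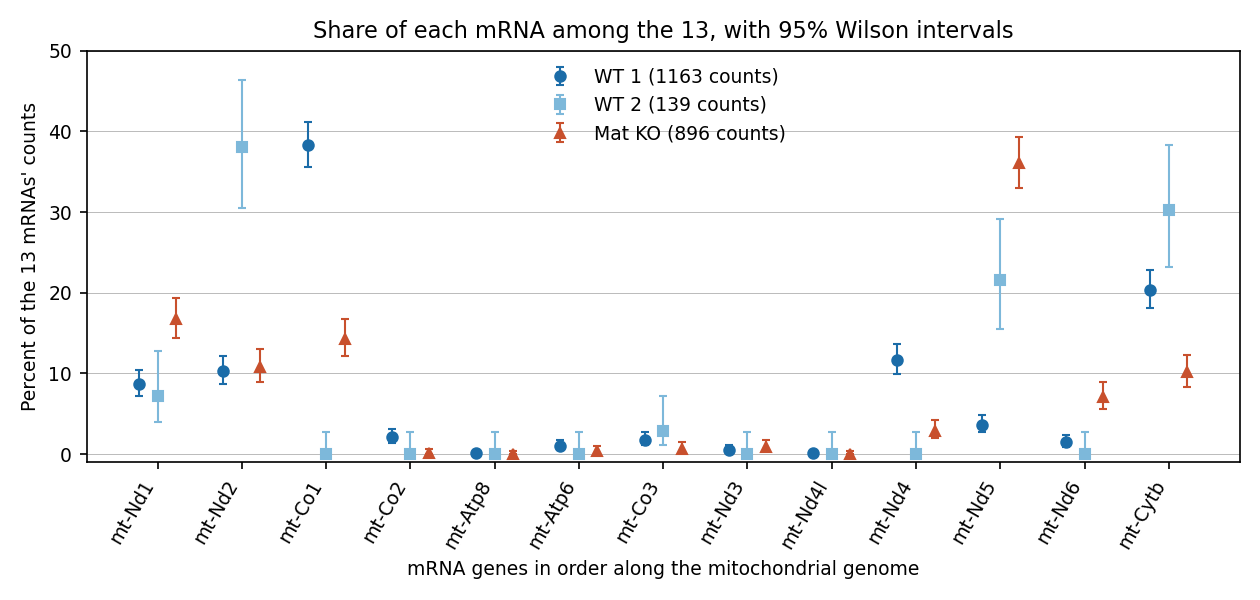
Share of each mRNA among the counts of the 13 mRNAs (percent), in genome order, with 95% Wilson intervals (counting error only). The highest point of each library falls on a different gene: mt-Co1 at 38.3% in WT 1, mt-Nd2 at 38.1% in WT 2 and mt-Nd5 at 36.05% in Mat KO. From mt-Co2 to mt-Nd4l every value is below 3%.

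mt-Atp8 and mt-Atp6, the bicistronic ATP synthase pair, share 43 bases, shown in capitals with 15 bases on either side because reads there lie on both genes.
mt-Atp8 and mt-Atp6 (chrM:7912-7984, plus strand): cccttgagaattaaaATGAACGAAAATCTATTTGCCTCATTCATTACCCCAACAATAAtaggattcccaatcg
mt-Atp8 is 204 bases long in all, which leaves 161 bases that no other mitochondrial gene covers. This is the smallest such stretch among the mRNAs that have no annotated near-identical copy.

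Read by position, the low counts of the mRNA genes coincided with the stretch that chromosome 1 also carries. Per kilobase of gene, the 5 mRNAs outside the stretch had 94.3 counts pooled in WT 1 (23.0 to 207 by gene), 24.6 in WT 2 (0 to 51.1) and 132 in Mat KO (79.55 to 177). The 6 mRNAs wholly inside it had 21.4 (3.37 to 35.1), 1.33 (0 to 5.10) and 6.004 (0 to 23.0). In Mat KO no gene inside the stretch reached the lowest of those outside, whereas in WT 1 the ranges overlapped through mt-Nd5 and mt-Nd6. Inside genes made up 26.3% of the summed mRNA length but 5.50%, 2.88% and 2.01% of the mRNA counts. The inside group includes the shortest genes, and the part of length and of the copy in these values was not tested.

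The nuclear copies were themselves counted in the tables. Gm28661 had 24, 0 and 0 counts beside the 24, 0 and 1 of its identical partner mt-Co2. Gm28437 had 25, 0 and 4 beside 21, 4 and 6 for mt-Co3, and Gm10925 had 8, 0 and 3 beside 11, 0 and 3 for mt-Atp6. Gm28439, which copies the beginning of mt-Nd4, had 7, 0 and 34 counts beside 136, 0 and 26, so the copy outnumbered the gene in Mat KO and not in WT 1. The 7 copies held 86, 0 and 41 counts in all, against 645, 4 and 172 for the 7 mitochondrial genes. Reads recorded as aligned to several places numbered 31794, 87000 and 53833 in all, and how many of them lay in this stretch is not known. Identical pairs such as mt-Co2 and Gm28661 still held counts of their own. Whether reads that fit both places were divided between gene and copy is also not known. The counts of the mt-Co2, mt-Atp6, mt-Co3, mt-Nd3, mt-Nd4l and mt-Nd4 genes are therefore uncertain, and mt-Co1 is so over its last 483 bases. mt-Atp8 also lies inside the stretch and may be affected in the same way, but without an annotated copy this could not be examined. Over its other 1062 bases mt-Co1 would have 420, 0 and 120.5 counts per kilobase if all its counts lay there.

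**Figure D5:**
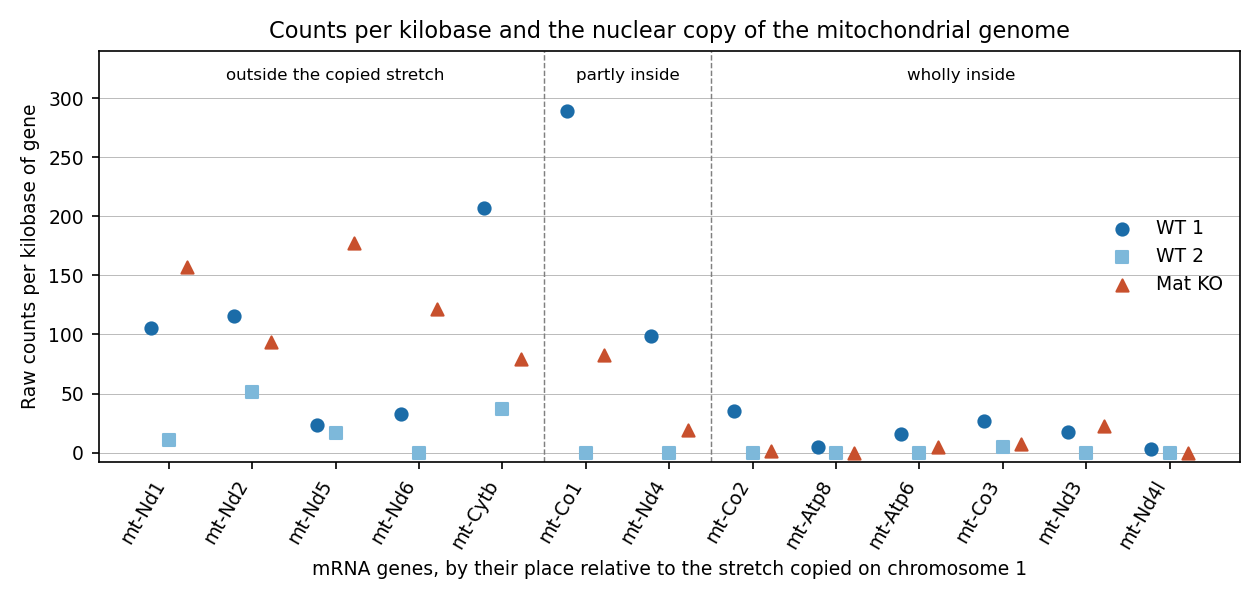
Raw counts per kilobase of gene for the 13 mRNAs in each library, grouped by whether the gene lies outside, partly inside or wholly inside the mitochondrial stretch that chromosome 1 also carries. Inside genes lie at 35.1 or below in all libraries. mt-Co1, partly inside, has the highest value of all, 289 in WT 1.

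Whether Mat KO differed from WT was tested with edgeR's quasi-likelihood test over all genes. No mitochondrial gene was called. Of the 437 genes that passed the filter on low counts, 0 had an adjusted p under 0.05 (0% of genes tested), and 0 had an unadjusted p under 0.05. Of the 37 mitochondrial genes 11 were tested, both rRNAs and 9 mRNAs, and mt-Atp6, mt-Atp8, mt-Nd3, mt-Nd4l and the 22 tRNAs were not. Their adjusted p ranged from 0.772 to 0.995 in edgeR's test. DESeq2 also called 0 genes, with 7 of the 437 and none of the 11 at an unadjusted p under 0.05. The test had 1 Mat KO library, 1 residual degree of freedom and a common dispersion of 3.86. In simulated counts of that dispersion it called none of the changed genes, so the lack of calls shows neither a change nor its absence.

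The median log2 fold change of the 11 genes, Mat KO against WT, was -2.18, beside -0.25 over all 437. mt-Rnr2 had the lowest, -4.15 (standard error 6.53), and mt-Nd5 the highest, 1.32 (4.66). mt-Nd6 had 1.28 (5.91), mt-Co1 -2.23 (5.08), mt-Cytb -2.18 (5.17) and mt-Nd1 -0.11 (4.93). Each standard error exceeded its value. The place of mt-Rnr2 depended on the scaling. With total counts alone it had -1.17, and mt-Co2 was lowest at -3.44. mt-Rnr2 had -4.09 with DESeq2-type size factors and -4.57 with library sizes without the 4 most counted features. With WT 1 left out the median was 0.38, beside 1.78 for all genes, and with WT 2 left out -1.74, beside -0.88. Under the 3 other scalings it lay between -1.20 and -1.08, beside 0.07 to 0.97 for all genes. The sign of the median thus changed with WT 1 left out, while it lay below that of all genes in each of these settings. The settings share the same 437 genes, some of which passed the filter through 1 library, so they are not separate support.

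In CPM, Mat KO lay above both WT libraries for 2 of the 11 genes, mt-Nd5 and mt-Nd6. Of all tested genes 47.1% did so. It lay below both for 0 of the 11, against 9.38% of all tested genes. The other 9 mitochondrial genes lay between the WT libraries. The shares over all tested genes depend on the filter, which admits genes counted in Mat KO alone, such as Incenp (0, 0 and 58). Such genes lie above both WT libraries by construction. To lie below both, a gene needs a count in WT 2, where only 425 genes had one. On one common scale, a library above both others gives a positive fold change whichever of them is left out. The CPM were scaled to all gene-assigned counts and the fold changes by edgeR's TMM, so the order in CPM does not fix their sign. With 1 WT library left out, the values of mt-Nd5 and mt-Nd6 were positive. These values rest on the same libraries as the order in CPM and give no further support. Over all alternatives the log2 fold change ranged from 1.20 to 2.44 for mt-Nd5 and from 0.40 to 4.33 for mt-Nd6. Relative to the median of all genes under the same setting, mt-Nd6 stayed higher throughout, and mt-Nd5 did so except with WT 1 left out (1.20 against 1.78).

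The respiratory chain also needs subunits encoded in the nucleus and made on cytosolic ribosomes. Of 77 such genes matched for complexes I to V, 52 had a count in WT 1, 5 in WT 2 and 4 in Mat KO, with 219, 10 and 18 counts in all. Scaled to 10000 counts of protein-coding genes of the nucleus, Lars2 left out, this was 118 (103 to 134.5), 82.0 (44.6 to 150.2) and 22.4 (14.2 to 35.45). Mat KO was lowest, while its mitochondrial mRNA share on a similar scale was near that of WT 2 and above that of WT 1. The genes listed for nuclear complex I had 79, 0 and 0 counts, led by Ndufa4 and Ndufs1 with 10 each in WT 1, and Ndufv2 with 8. Ndufs1 is an iron-sulfur subunit, while Ndufa4, listed here with complex I, is now counted as a complex IV subunit. For this list the 0 counts of WT 2 allow up to 24.6 per 10000 and those of Mat KO up to 3.74. WT 1 had 42.5 (34.1 to 53.0). Complex II, which has no mitochondrial gene, had 8, 0 and 15 counts. There Mat KO was the highest, through Sdhc, a membrane anchor, with 0, 0 and 15, while Sdha, the flavoprotein, had 7, 0 and 0 and Sdhb 1, 0 and 0. Complex III had 25, 2 and 0 counts, with Uqcrh and Uqcrq at 8 each in WT 1 and Cyc1, cytochrome c1, at 5, 1 and 0. The complex IV list, which leaves out Ndufa4, was counted in WT 1 alone, with 46 counts led by Cox6a1 (17), Cox4i1 (11) and Cox5a (5). For complex V, with 61, 8 and 3 counts, Atp5b, the catalytic beta subunit, had 17, 6 and 0, Atp5f1 11, 1 and 0, and Atp5o 8, 0 and 0. Of these 77 genes 3 were tested and 0 were called in edgeR's test.

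Proteins that serve the mitochondrial RNAs were hardly counted. The 82 genes of mitochondrial ribosomal proteins had 31, 1 and 0 counts. Large subunit genes were led in WT 1 by Mrpl24 (5), Mrpl35 (4) and Mrpl33 (3), and small subunit genes by Mrps24 (4), Mrps2 (1) and Mrps10 (1). The 32 genes of mitochondrial transcription, processing and RNA stability had 4, 0 and 0 counts, among them 1 each for the mRNA-stabilising Lrpprc, the RNase P subunit gene Hsd17b10, and Fastk. Mitochondrial aminoacyl-tRNA synthetases, which charge the tRNAs above, had 2, 0 and 7 counts over 18 genes, with Fars2 (phenylalanine) at 0, 0 and 6, Mars2 (methionine) at 1, 0 and 0 and Yars2 (tyrosine) at 0, 0 and 1. Lars2, which charges the leucine tRNAs such as mt-Tl1, stood alone with 27657, 119308 and 77353 counts. No mitochondrial transcript aligned to an annotated Lars2 transcript at 85% identity or more over at least 60 bases. Cytosolic rRNA was not aligned to it, and whether the Lars2 reads came from its mRNA was not tested. The counts are therefore not read as an amount of Lars2 mRNA. CT010467.1, the other feature with very many counts, had 11971, 41443 and 20464.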

How the data were processed

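Polysomal RNA of marrow cells was counted per gene in 2 WT libraries and 1 Mat KO library, grouped by the genotype and title labels. The authors deposited raw, unnormalized counts for each Ensembl gene identifier, and the submitters' processing notes name Trimmomatic, HISAT2 2.1.0, HTSeq 0.11.2 and GRCm38. For the annotation, strand setting and rRNA depletion, the sources used here give nothing. The 5 HTSeq summary lines were left out of totals and tests. GENCODE M21 named 48349 of 48795 identifiers.

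Shares carry 95% Wilson intervals (SciPy 1.17.1), and a count of 0 was given a limit of 3 counts. edgeR 4.0.16 in R 4.3.3 used TMM, filterByExpr by group (minimum count 10, total 15), prior count 2 and Benjamini-Hochberg adjustment at 0.05. The single Mat KO sample was taken to have the WT spread. Standard errors are the absolute log2 fold change over the square root of F. DESeq2 1.42.0 was run on the same genes. The edgeR script was tested on simulated data, where it recovered most large changes at a low dispersion and none at the dispersion estimated here.

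Mitochondrial transcripts were aligned to all other M21 transcripts with BLAST 2.17.0 (word size 11, E value 1e-05), keeping hits of at least 85% identity over 60 bases, 1 per gene pair; near-identical means at least 99%. Named genes were all mRNAs and rRNAs, tRNAs with a count, and in each nuclear list the 3 genes with the most counts, and Lars2. Of 243 list symbols, 240 matched. Members and lists were chosen with earlier results of these data known. Alternatives were other scalings, no filter, DESeq2, other denominators, counts per kilobase, no overlapping pairs and each WT library left out. Leaving out the 6 mRNAs of the copied stretch was added after the data were seen.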

Additional observations from a re-analysis of the deposited data

How the results depend on the processing

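The count of called genes was 0, over all genes and over the mitochondrial genes, in edgeR's quasi-likelihood test under the 3 other scalings and with no filter, with no unadjusted p under 0.05 either, and in DESeq2, where 7 and 0 had one. With a WT library left out no residual degrees of freedom remained, so no count could be given. Of 77 log2 fold changes under alternatives 11 changed sign. mt-Nd1, at -0.11, became 1.02 with DESeq2-type size factors, 0.28 with total counts alone, 1.15 with library sizes without the 4 most counted features, 0.22 with no filter and 1.06 in DESeq2. With WT 1 or WT 2 left out, the value was 1.63 or -0.88 for mt-Nd1, 5.32 or -3.24 for mt-Co1, 3.15 or -3.71 for mt-Nd4, 0.38 or -4.14 for mt-Co2, -3.99 or 0.063 for mt-Rnr1 and -5.12 or 0.54 for mt-Rnr2, where mt-Co1, mt-Co2 and mt-Nd4 have 0 counts in WT 2. Of 15 alternatives for shares and ratios that keep both WT libraries, 2 moved by more than the WT spread on the main scale. An alternative on another scale has a WT spread of its own, so a move there can reflect the change of scale. The Mat KO difference in the mRNA share, -0.22 percentage points, was 1.99 with protein-coding counts without Lars2 as the denominator, which removes the rRNAs, so that the genome share there is the mRNA share. That of the mt-Nd6 share, 6.30, was 14.2 per kilobase, since mt-Nd6 is a short gene. No paired analysis was possible because the labels number the WT libraries and not the Mat KO one. The 12 values with a WT library left out cannot move by more than the SD of a pair, so they were not read against it. With WT 1 or WT 2 left out, the Mat KO difference was -20.4 or 3.51 points for the genome share, 0.65 or -1.09 for the mRNA share, -18.2 or 8.30 for the mt-Rnr2 share and -5.17 or 2.14 for the log2 ratio of rRNAs to mRNAs, each with both signs, as Mat KO lies between the WT libraries. It was 7.54 or 38.1 for complex I and 7.03 or 5.57 for mt-Nd6. The Mat KO difference in the genome share, -8.46 points, was -7.26 without Lars2 and CT010467.1 and -1.33 of all recorded reads; in the mRNA share it was 0.77 and -0.068. WT 2 had the most recorded reads, but its mRNA shares rest on 139 counts.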

Other observations

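By their annotated ends, 9 of the 13 mRNAs began with ATG, whereas mt-Nd1, mt-Nd2, mt-Nd3 and mt-Nd5 began with GTG, ATA, ATT and ATC. The length of 10 was a multiple of 3, and mt-Co3, mt-Nd4 and mt-Cytb had 1 base over. It is known that such mRNAs gain the end of their stop codon through polyadenylation. The G+C content of the mRNAs ranged from 31.9% to 41.1%.

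A transcript of Cep295, a centrosomal protein gene on chromosome 9, held stretches similar to 3 mitochondrial tRNAs: mt-Tn over 71 bases at 91.5% identity, mt-Ta over 63 at 88.9%, and mt-Tl1 over 62 at 93.5% on the opposite strand. The tRNA genes were at 0 in all libraries, and Cep295 had 0, 0 and 12 counts.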
